A study of Ovis aries with 16 samples.

Results

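The miRNA pair oar-miR-103 and oar-miR-107 was chosen by name, and both members were listed in every library. They are 2 of the 103 known sheep miRNAs and of the 271 miRNAs that the deposited values hold, the rest being predicted miRNAs that are called candidate-miR here. The predicted candidate-miR-103 and candidate-miR-107 are other molecules that only carry the same numbers. Small RNAs were sequenced from the testis of 16 adult Merino males, 1 library per male, to ask how nutrition affects the small RNAs of the adult testis. The 8 well-fed males were fed for a rise in body mass of 10%, and the 8 underfed males for a change of -10%, over 65 days. As far as the study describes them, the diets differed in the amount of feed and in nothing else. Each library was made from unsorted testis tissue, so fewer cells of a type and less miRNA per cell cannot be told apart. The study froze samples from the top, middle and bottom of the right testis for RNA.

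A miRNA guides an Argonaute protein to matching sites in mRNAs, mainly through the bases of its seed near its 5′ end, and lowers the output of those mRNAs. miR-103 and miR-107 share their seed and are almost identical along their length, so they are expected to bind the same sites. They belong to the miR-15/miR-107 group, whose members begin alike. In mouse liver and fat, raising miR-103 and miR-107 weakens the response to insulin, and caveolin-1, a membrane protein that stabilises the insulin receptor, is a known target. Their genes lie in introns of pantothenate kinase genes, which encode the first enzyme of coenzyme A synthesis. In the RefSeq gene table of the sheep assembly ARS-UI_Ramb_v3.0, which is not the build used by the study, MIR103 lay within PANK3 and MIR107 within PANK1, with 1 entry for each. Host transcripts were not measured in small RNA libraries.

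The values are counts per 1000000 (CPM), the number of reads of a miRNA for every 1000000 miRNA reads of its library, so that a rise of one miRNA lowers the value of the others. The miRNA reads of a library numbered 17163 to 503916 in well-fed and 27797 to 1058985 in underfed males. Well-fed replicate 5 and underfed replicates 6 and 8 held fewer than 100000. Over all libraries 9642 reads were assigned to oar-miR-103 and 2665 to oar-miR-107. A single library gave between 22.5 and 1334 reads to oar-miR-103, and between 9.5 and 415 to oar-miR-107. All intervals on single libraries cover counting error only, since PCR reads are not independent molecules.

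Some read counts ended in 0.5, which means that a read was divided between miRNAs. The counts of oar-miR-103 and of oar-miR-107 ended in 0.5 in exactly the same 10 of the 16 libraries, and no other miRNA did so in that set of libraries. Elsewhere 214 of the 271 miRNAs had no such count in any library. There were 10 sets of miRNAs whose counts ended in 0.5 in identical groups of at least 5 libraries, and each was a set of 2. Among these were oar-miR-26a with oar-miR-26b, oar-miR-23a with oar-miR-23b and oar-miR-27a with candidate-miR-179, the homologue of miR-27b. The number of reads divided between oar-miR-103 and oar-miR-107 cannot be read from the values, so their counts are not independent and the split between them is uncertain.

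oar-miR-103 was lower as a share of miRNA reads in underfed than in well-fed males. In well-fed replicates 1 to 8 its expression was 2060, 1829, 1713, 1869, 2010, 1929, 2118 and 2294 CPM. In underfed replicates 1 to 8 it was 1934, 952, 1260, 1309, 1095, 809, 1262 and 1258 CPM. Thus 7 of the 8 underfed males lay below every well-fed male, and underfed replicate 1 lay within the well-fed range. On the same unscaled values 181 of the 244 miRNAs tested had lower mean log2 CPM in underfed males. How many of them separated as far was not counted, so the separation is not shown to be particular to oar-miR-103. Well-fed males averaged 1978 ± 183 CPM and underfed males 1235 ± 333 CPM (SD, n = 8 each), a fold change (FC, underfed/well-fed) of 0.624. The rank of oar-miR-103 among the miRNAs of a library, which does not depend on scaling, was 43 to 46 in well-fed and 46 to 57 in underfed males. Again 7 of the 8 underfed males ranked it below every well-fed male, the exception being underfed replicate 7 at rank 46.

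oar-miR-107 was the rarer member and its groups overlapped more. In well-fed replicates 1 to 8 it was found at 486, 474, 408, 497, 554, 435, 511 and 584 CPM. In underfed replicates 1 to 8 it was found at 573, 278, 392, 396, 337, 414, 379 and 279 CPM. Here 6 of the 8 underfed males lay below every well-fed male, while underfed replicates 1 and 6 lay within the well-fed range. The share of all miRNAs that separated as far was again not counted. Underfed replicate 6 rests on 11.5 reads, with a 95% Poisson interval of 210.2 to 731 CPM. Well-fed males averaged 493.5 ± 57.8 CPM and underfed males 381 ± 93.6 CPM (SD, n = 8 each), an FC of 0.772. Its rank was 80 to 93 in well-fed and 74 to 97 in underfed males, so that the well-fed range lay inside the underfed range.

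**Figure D1:**
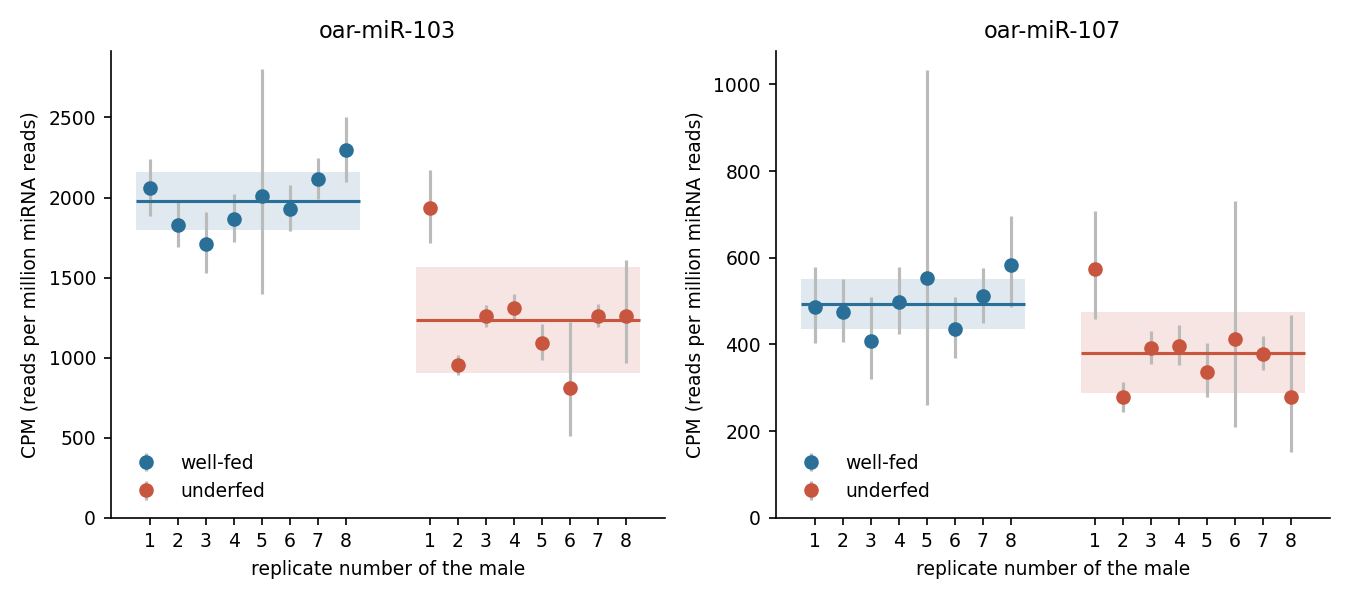
CPM of oar-miR-103 (left) and oar-miR-107 (right) in each male, by replicate number, for well-fed (blue) and underfed (red) males. Grey bars are 95% Poisson intervals from the reads of that library, lines are means and bands are SD over 8 males. Underfed replicate 1, at 1934 and 573 CPM, stands within the well-fed values for both miRNAs.

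Whether these differences passed a test depended on how the libraries were scaled. The trimmed mean of M values (TMM), which sets most miRNAs to a common level, gave factors of 1.08 to 1.39 in well-fed and 0.698 to 1.26 in underfed males, so it moved with diet. With TMM, limma on log2(CPM + 1) gave oar-miR-103 a log2 fold change of -0.24 (SE 0.15, 95% interval -0.56 to 0.07, FDR 0.327). For oar-miR-107 this value was 0.08 (SE 0.19, 95% interval -0.32 to 0.48, FDR 0.814). Neither was differentially expressed (DE, FDR under 0.05 with FC under 0.67 or above 1.5), against 8 of 244 miRNAs tested (3.28%). This count joins an FDR from TMM-scaled values to an FC from CPM without TMM, so it depends on 2 scales. The FC of oar-miR-26a, for example, was 1.35 from CPM and 1.92 from TMM-scaled CPM. At FDR under 0.05 alone there were 15 of 244 (6.15%), and neither member was among them. After TMM scaling, oar-miR-103 averaged 1684 ± 210 in well-fed males against 1433 ± 244 in underfed males (SD, n = 8 each). The diets then overlapped, with only underfed replicate 6 below every well-fed male.

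Without TMM, oar-miR-103 fell under the restricted diet (log2 fold change -0.72, limma FDR 0.0095). It was called there at an FC of 0.624, while 38 of 244 miRNAs (15.6%) were called lower at FDR under 0.05. It passed FDR 0.05 with each male left out in turn, at an FDR between 0.000293 and 0.0238. oar-miR-107 was at -0.40 on the same scale without TMM (FDR 0.175), which passed the threshold only without underfed replicate 1 (-0.49, FDR 0.0406). When miRNAs and piRNAs, the other small RNA class of these libraries, were normalized together, both signs turned. oar-miR-103 was then at 0.71 (log2 fold change, limma FDR 0.0711). oar-miR-107 rose by 1.02 (log2 fold change, FDR 0.0156), as did 85 of 244 miRNAs (34.8%) at FDR under 0.05.

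The 3 scalings moved all miRNAs and not the pair alone. Over the 244 miRNAs the median of this value was -0.51 without TMM, -0.08 with TMM and 0.81 under joint normalization. Relative to that median oar-miR-103 was at -0.21, -0.16 and -0.10, and oar-miR-107 was at 0.11, 0.15 and 0.21. Relative to the other miRNAs, therefore, oar-miR-103 lay slightly below and oar-miR-107 slightly above the middle under each of these scalings. With TMM 41.4% of the miRNAs had a lower log2 fold change than oar-miR-103, and 56.6% had a lower one than oar-miR-107.

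**Figure D2:**
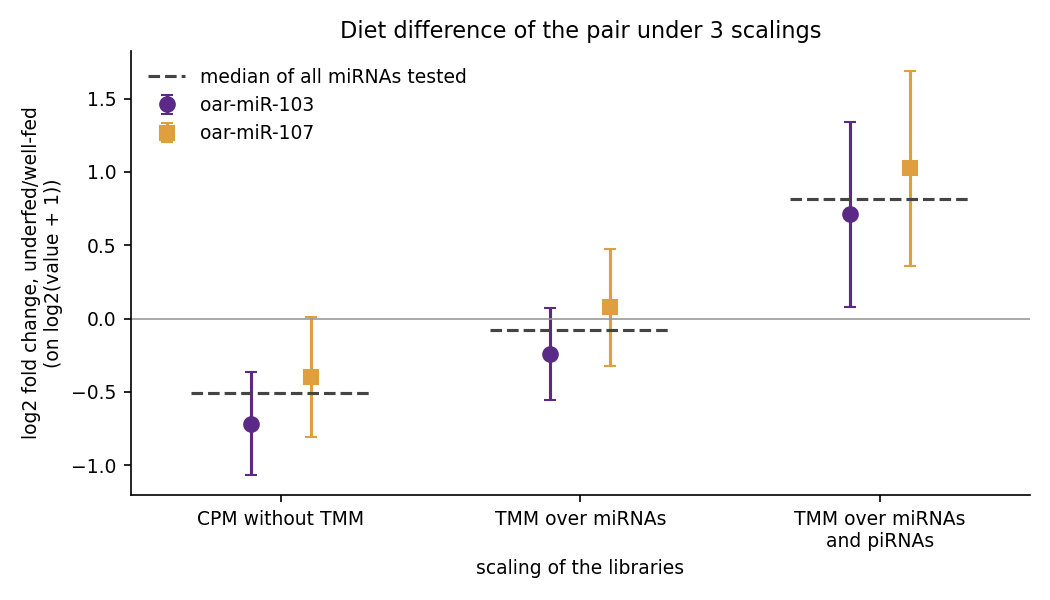
Log2 fold change (underfed/well-fed, on log2(value + 1)) of oar-miR-103 (circles) and oar-miR-107 (squares) with 95% intervals from limma under 3 scalings, 8 males per diet. Dashed lines are the median of the 244 miRNAs tested, at -0.51, -0.08 and 0.81, and the pair moves with that line.

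Other measures of the libraries also differed in mean between diets, and their part in the CPM difference was not tested. The share of oar-miR-10b, a miRNA encoded in a HOX cluster, averaged 20.9% ± 2.96 of the reads in well-fed males against 29.4% ± 8.03 in underfed males (SD, n = 8 each). With the reads of oar-miR-10b left out of the total, and without TMM, the FC of oar-miR-103 was 0.693 (log2 fold change -0.55, limma FDR 0.025). For oar-miR-107 it was 0.86 (log2 fold change -0.23, FDR 0.452). With oar-miR-10b kept in the total, the log2 fold changes without TMM were -0.72 and -0.40. The median of all miRNAs without TMM was -0.37 with oar-miR-10b left out, beside -0.51 with it kept. The ratio of miRNA to piRNA reads was 0.355 to 0.908 in well-fed males and 0.517 to 3.13 in underfed males, where the lowest value was that of underfed replicate 1. That male was also the underfed male with the highest CPM of both members.

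The balance between the members does not depend on any scaling, because the library total cancels. It was lower in underfed males, where a smaller share of the reads of the pair was assigned to oar-miR-103. In well-fed replicates 1 to 8 that share was 80.9, 79.4, 80.8, 79.0, 78.4, 81.6, 80.6 and 79.7%. In underfed replicates 1 to 8 it was 77.1, 77.4, 76.3, 76.8, 76.5, 66.2, 76.9 and 81.8%. So 7 of the 8 underfed males lay below every well-fed male, and underfed replicate 8 lay above them all. Underfed replicates 6 and 8 rest on 34 and 77 reads of the pair, with 95% Wilson intervals of 49.4 to 79.7% and 71.8 to 88.8%. Underfed replicate 1, which resembled well-fed males in the CPM of each member, had a share like those of the other underfed males.

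The log2 ratio of oar-miR-103 to oar-miR-107 averaged 2.004 ± 0.098 in well-fed males against 1.69 ± 0.33 in underfed males (SD, n = 8 each). The difference was -0.32 (SE 0.12; two-sided exact permutation test over 12870 arrangements, p = 0.00637), and 7 of the 8 underfed males showed its direction against every well-fed male. In the 7 well-fed and 6 underfed libraries with more than 100000 miRNA reads the diets did not overlap. There the ratio was 2.02 ± 0.085 (SD, n = 7) against 1.73 ± 0.034 (SD, n = 6), a difference of -0.30 (exact permutation test over 1716 arrangements, p = 0.000583). That p is the smallest that these numbers of males allow. If the 2 counts were independent, counting error would give a root mean square SD of 0.138 and 0.121 for these well-fed and underfed libraries. Both exceed the spread seen between males, but the counts share divided reads, so the counting error of the ratio is not known. The Wilson intervals take no account of the divided reads either. Pooled over the deeper libraries, oar-miR-103 took 80.3% of 5449 reads of the pair in well-fed and 76.8% of 6703 in underfed males. The measure includes the divided reads described above, and their part in the difference was not tested. Ratios of other pairs of miRNAs were not computed, so the difference is not shown to be particular to this pair.

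**Figure D3:**
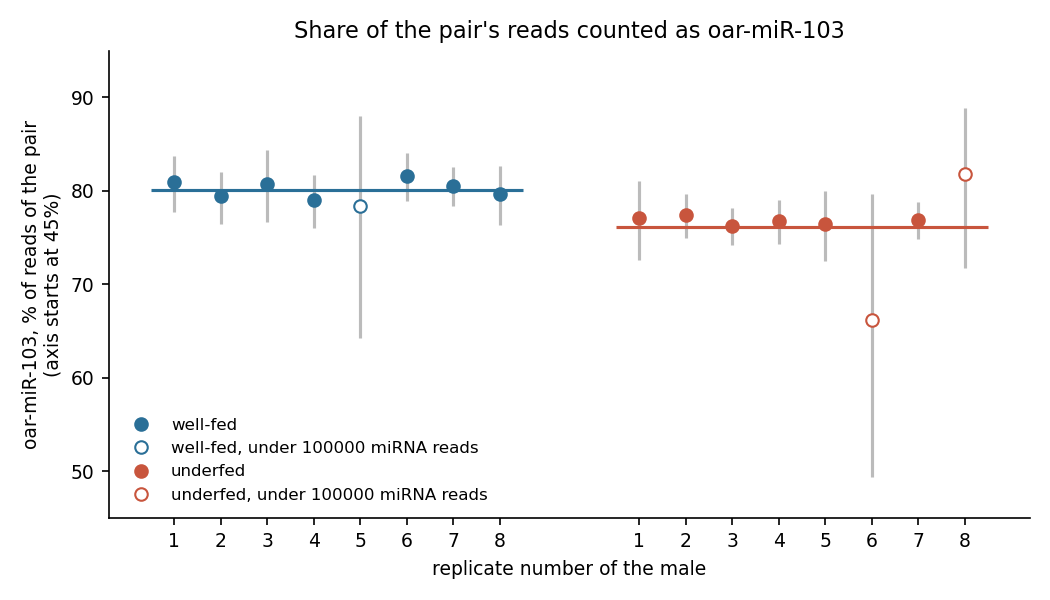
Percent of the reads of the pair that were assigned to oar-miR-103 in each male, by replicate number, for well-fed (blue) and underfed (red) males, on an axis that starts at 45%. Grey bars are 95% Wilson intervals, lines are means over 8 males and open circles are libraries with fewer than 100000 miRNA reads. Well-fed males lie between 78.4 and 81.6%, and the underfed males with filled circles between 76.3 and 77.4%.

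The sum of the pair is given as a description. It was 2120 to 2878 CPM among well-fed males (mean 2471 ± 233, SD, n = 8) and 1223 to 2508 CPM in underfed males (1616 ± 405, SD, n = 8). These are 0.247% and 0.162% of the miRNA reads.

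From male to male the members varied together only in part. Over the 16 libraries the TMM-scaled log2 values had Pearson's r = 0.40 (permutation p = 0.124, adjusted 0.29 over the 7 relations computed). Spearman's rho was 0.36 (permutation p = 0.173, adjusted 0.567). Without underfed replicate 6 and well-fed replicate 3, the males farthest from the median of oar-miR-103, r was 0.69. Within well-fed males r was 0.91 (exact permutation p = 0.00928, adjusted 0.0649) and rho 0.83 (exact permutation p = 0.0154, adjusted 0.108), but r was 0.45 without well-fed replicates 3 and 7. Within underfed males r was 0.34 (exact permutation p = 0.416, adjusted 0.583) and rho 0.48 (exact permutation p = 0.243, adjusted 0.567), and r was 0.88 without underfed replicates 6 and 7. The relation thus rests on which males are included, and both values of a male share divided reads and a scaling factor.

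No relation of either member's CPM to the ratio of miRNA to piRNA reads passed the test within a diet. Within underfed males the log2 values had r = -0.54 for oar-miR-103 (exact permutation p = 0.166, adjusted 0.29) and rho = -0.02 (exact permutation p = 0.977, adjusted 0.977). For oar-miR-107 r was -0.58 (exact permutation p = 0.138, adjusted 0.29) and rho -0.14 (exact permutation p = 0.752, adjusted 0.877). Both values of r rest on underfed replicates 1 and 3, without which they were 0.09 and -0.09. Within well-fed males r was -0.26 for oar-miR-103 (exact permutation p = 0.552, adjusted 0.644) and rho -0.14 (exact permutation p = 0.752, adjusted 0.877). For oar-miR-107 r was -0.14 (exact permutation p = 0.76, adjusted 0.76) and rho 0.14 (exact permutation p = 0.752, adjusted 0.877). Without well-fed replicates 7 and 8 these values of r were -0.13 and 0.58.

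The miRNAs most like each member over the 16 libraries did not include one miRNA for both. For oar-miR-103 they were candidate-miR-142, the homologue of miR-769 (r = 0.80), oar-miR-1197-3p (0.71), oar-miR-381-3p (0.71), candidate-miR-58 (0.70) and candidate-miR-13 (0.70). Those 4 after the first averaged only 16.1 to 28.0 CPM, so counting error is large in them. For oar-miR-107 they were candidate-miR-18, the homologue of miR-140-3p (r = 0.67), oar-miR-221 (0.65), candidate-miR-26, the homologue of miR-222-3p (0.65), candidate-miR-98 (0.57) and candidate-miR-57 (0.52). Counting error is large in candidate-miR-98 too, which averaged only 13.3 CPM. Each member stood further down the list of the other, oar-miR-107 at place 67 for oar-miR-103 and oar-miR-103 at place 16 for oar-miR-107. All these values share the library depths and scaling factors, and none of these 10 miRNAs passed FDR 0.05 between diets in limma with TMM.

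By mean expression over all males oar-miR-103 was in place 46 and oar-miR-107 in place 85. Directly above oar-miR-103 stood oar-miR-99a, a miRNA of the miR-100 family, at 1733 CPM against 1606 CPM for oar-miR-103, and directly below stood candidate-miR-143, the homologue of let-7e, at 1520 CPM. oar-miR-99a rose in underfed males with TMM (log2 fold change 1.22, limma FDR 0.0329), from 1095 ± 164 to 2370 ± 2469 CPM (SD, n = 8 each). The means of these 3 neighbours differed by less than their spread over males. Around oar-miR-107, at 437 CPM, stood oar-miR-410-3p at 459 and candidate-miR-138 at 418 CPM, again within the spread over males. Neither passed the test between diets (limma, FDR 0.112 and 0.201).

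The other members of the miR-15/miR-107 group did not share a direction with TMM. Apart from the pair, 6 of 10 names were listed in the files, and all 6 were tested. With TMM, 4 had higher and 2 lower mean log2 values in underfed males, and none passed FDR 0.05, while 6.15% of all miRNAs did. Unadjusted p was also above 0.05 for each of the 6, the lowest being 0.0891 for candidate-miR-108 (limma). Their median log2 fold change was 0.20, beside -0.08 for all miRNAs tested. Without TMM 1 had a higher and 5 a lower value, the median was -0.27, beside -0.51, and 2 of the 6 were called lower at FDR under 0.05, beside 15.6% of all miRNAs.

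The most abundant member was oar-miR-16b, of the family known to hold back the cell cycle, with 17421 ± 2883 CPM among well-fed males against 11953 ± 6774 CPM among underfed males (SD, n = 8 each). It changed by -0.20 on the log2 scale with TMM (limma FDR 0.543) and by -0.67 without (FDR 0.0458). In the same units candidate-miR-110, the homologue of miR-15b, was at 1399 ± 273 and 920 ± 693 CPM, with log2 fold changes of -0.34 (FDR 0.338) and -0.81 (FDR 0.0445). These are the 2 called without TMM beside oar-miR-103. candidate-miR-109, the homologue of miR-15a, was at 846 ± 103 and 735 ± 394 CPM, with a log2 fold change of 0.16 with TMM (FDR 0.676). The homologues of miR-424 and miR-497, candidate-miR-51 and candidate-miR-52, had log2 fold changes of 0.26 and 0.24 (FDR 0.558 and 0.522). candidate-miR-108, the homologue of miR-195, was the rarest at 78.1 ± 51.3 and 108 ± 75.2 CPM, and its log2 fold change of 1.37 carried an SE of 0.77. Among the 8 tested miRNAs of the group, the pair included, oar-miR-103 had the second lowest log2 fold change with TMM and the smallest SE.

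**Figure D4:**
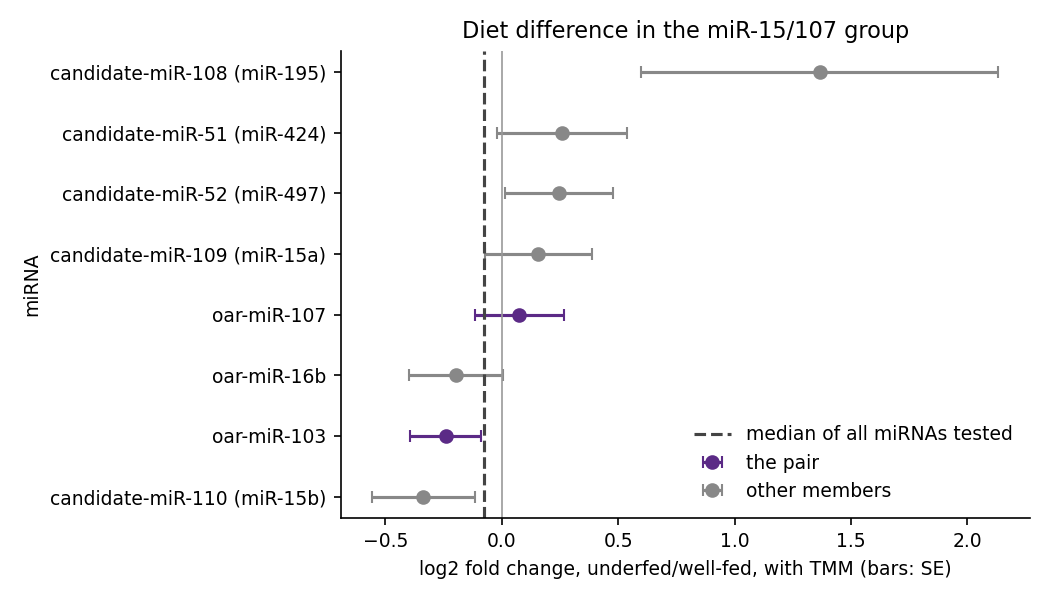
Log2 fold change (underfed/well-fed, limma with TMM, on log2(CPM + 1)) of the 8 tested miRNAs of the miR-15/miR-107 group, with bars for the SE and 8 males per diet. oar-miR-103 at -0.24 lies left and oar-miR-107 at 0.08 right of the dashed median of all 244 miRNAs (-0.08).

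Other miRNAs known for insulin, glucose and lipid metabolism mostly had higher values in underfed males with TMM. The list was chosen with earlier results of these data known, and the study had reported oar-miR-26a and oar-miR-29a as higher in underfed males. Its members are not independent. Several are let-7 miRNAs, and the counts of oar-miR-26a and oar-miR-26b ended in 0.5 in the same 9 libraries. The counts below are therefore a description only. Of 26 names 21 were listed and 20 were tested. With TMM, 18 had higher and 2 lower mean log2 values in underfed males, with a median log2 fold change of 0.47. Of all 244 miRNAs tested, 115 had higher and 129 lower values, with a median of -0.08. Of the 20, 3 rose at FDR under 0.05, beside 3.69% of all miRNAs, and none fell, beside 2.46%. They were oar-miR-26a and oar-miR-26b, which restrain genes of insulin signalling and fatty acid synthesis in liver, and oar-miR-29a, which lowers collagen and insulin signalling genes. Their log2 fold changes were 0.91 (FDR 0.00546), 0.76 (FDR 0.0489) and 0.89 (FDR 0.00546). The greatest value belonged to oar-miR-200b at 1.17 (FDR 0.378), a miRNA known from epithelial cells, at only 4.15 and 8.47 CPM. The lowest values were those of oar-miR-181a at -0.08 (FDR 0.82) and oar-let-7d at -0.02 (FDR 0.971). Without TMM 10 of the 20 had higher and 10 lower values, and the median of the list was -0.01, beside -0.51. Only oar-miR-26a rose there (0.44, FDR 0.0407), and it was the only one of all 244 miRNAs called higher (0.41%).

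Markers of meiotic and later germ cells had lower mean CPM in underfed males. These markers too were chosen with earlier results of these data known, and the study had reported candidate-miR-31 as lower in underfed males. They are not independent, since candidate-miR-30 and candidate-miR-31 held divided reads in the same 5 libraries. How many of them passed FDR 0.05 is therefore a description only. All 3 miRNAs listed for meiotic and later germ cells, the homologues of miR-34b-5p, miR-34c-5p and miR-449a, had lower values in underfed males with TMM, and 2 of them passed FDR 0.05, beside 2.46% of all miRNAs called lower. There candidate-miR-31 (miR-34c-5p) and candidate-miR-161 (miR-449a) fell, by 0.90 and 0.78 on the log2 scale (limma FDR 0.0256 each), and candidate-miR-30 (miR-34b-5p) had a value of -0.80 (FDR 0.0931). Under joint normalization the log2 fold changes of the 3 were 0.05, 0.18 and 0.15 in that order, below the median of 0.81 for all miRNAs. Their summed level was 47497 to 71079 CPM for well-fed and 10978 to 58155 CPM for underfed males, and 44629 CPM in underfed replicate 1. The 2 miRNAs listed for smooth muscle and peritubular cells, oar-miR-143 and the homologue of miR-145-5p, summed to 153985 to 210989 CPM for well-fed and 138660 to 215633 CPM for underfed males. Those of spermatogonia, oar-miR-21 and oar-miR-221, summed to 5402 to 12329 and 2930 to 8697 CPM. In both of these lists underfed replicate 1 had the lowest sum, and none of the 4 miRNAs passed FDR 0.05. With TMM the log2 fold changes of these spermatogonia markers were 0.01 for oar-miR-21 and 0.12 for oar-miR-221. The sums leave out candidate-miR-26, the homologue of miR-222-3p, since oar-miR-222 was sought by that name only. It went the other way (log2 fold change -0.34, limma FDR 0.388). The part of cell composition in the values of oar-miR-103 and oar-miR-107 was not tested.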

How the data were processed

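Testis small RNAs of 8 well-fed and 8 underfed males were measured, 1 library per male, with diet and replicate number taken from the labels. Per the study's methods and the submitters' processing notes, which name CASAVA 1.8 and the build Oar_v3.1, the authors matched reads of 18 to 25 nt to miRBase release 20. The deposited values are CPM that the authors computed within each class, miRNAs and piRNAs, without a factor between libraries. Reads were recovered from the spacing of low values, of which 92.8% to 99.0% per library were whole within 0.01 reads for miRNAs, and nearly all the others ended in 0.5. The floor of 3 reads was 0.000283% to 0.0175% of miRNA reads.

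limma 3.58.1 (R 4.3.3) was used with trend on log2(CPM + 1), after own TMM factors (30% of log ratios and 5% of abundances trimmed). The 244 miRNAs with CPM above 5 in at least 8 libraries were tested, with Benjamini-Hochberg adjustment. The limma fit was tried on simulated reads with known changes, but without TMM, so that trial did not cover the scaling. Log2 fold changes on this scale understate the change of low miRNAs. FC is the ratio of mean CPM. The log2 ratio was taken on CPM + 1 and compared by exact permutation, and correlations used 100000 permutations over 16 males and all 40320 over 8 (scipy 1.17.1, Python 3.11.15). The miRNAs named are the pair, the 5 most correlated with each, the neighbours in mean CPM, the miR-15/miR-107 group, and, from the metabolic list, those under FDR 0.05 with the extremes. Germ cell, muscle and spermatogonia lists served as markers. The pair and all lists were chosen with earlier results of these data known. Homologues of predicted miRNAs are as the study matched them. Alternatives were no TMM, no filter, pseudocounts of 0.5 and 5, a replicate block, voom, joint normalization, the read total as a covariate, robust empirical Bayes, deeper libraries only and each male left out. Further fits without TMM, the removal of oar-miR-10b from the total (also without TMM), FC from scaled CPM and the relations with the miRNA to piRNA ratio were added after seeing the data. Mature sequences are not printed here.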

Additional observations from a re-analysis of the deposited data

Results flagged for a closer look

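In 12 sets of 8 males (CPM and TMM-scaled CPM of each member, their log2 ratio and their sum, per diet), a male was marked where its gap to the nearest other male exceeded 0.526 of the range, Dixon's 95% critical value. Chance marks about 1 in 20 such sets, and the measures overlap. There were 5 marked values. Underfed replicate 1 stood above the other underfed males in oar-miR-103 (1934 CPM), in oar-miR-107 (573 CPM) and in their sum (2508 CPM). Well-fed replicate 3 stood below the other well-fed males in TMM-scaled oar-miR-103 (1235). Underfed replicate 6, with 34 reads of the pair, stood below the other underfed males in the log2 ratio (0.967). No explanation was tested.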

How the results depend on the processing

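For oar-miR-103 with TMM (log2 fold change -0.24) the value turned to 0.71 under joint normalization and passed FDR 0.05 without TMM (-0.72). The fit with oar-miR-10b left out of the total also had no TMM. There oar-miR-103 was at -0.55, smaller in size than -0.72, and again passed FDR 0.05. For oar-miR-107 (0.08) the sign turned without TMM (-0.40), and joint normalization took it past FDR 0.05 (1.02). Without TMM and with oar-miR-10b left out, oar-miR-107 was at -0.23, smaller in size than -0.40. Its FC of 0.772 became 1.06 from TMM-scaled CPM. These changes follow the shift of the median of all miRNAs. Leaving out 1 male gave -0.35 to -0.21 for oar-miR-103 and -0.0297 to 0.169 for oar-miR-107, with the sign turned without underfed replicates 3, 4 or 6. Without TMM the ranges were -0.81 to -0.64 and -0.49 to -0.34. The log2 ratio kept its direction and an exact permutation p below 0.05 in every setting tried, between -0.39 and -0.21 with 1 male left out. Its value was lowest in size without underfed replicate 6 (-0.21).

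The number of miRNAs with FDR under 0.05 was 15 with TMM. It was 39 without TMM, 47 with voom on recovered reads, 85 with joint normalization, 31 with the read total as a covariate and 42 in the deeper libraries. With 1 male left out it ranged from 4 to 45. It was 4 to 9 without well-fed replicate 1, 2, 5, 6 or 8 or underfed replicate 2, 3, 4 or 5, 27 without underfed replicate 8 and 45 without underfed replicate 1. The cause was not tested.

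The correlation of the members (0.40) had an unadjusted permutation p below 0.05 without the 2 males farthest from the median (0.69), in the deeper libraries (0.70), as deviations from diet means (0.55) and in well-fed males (0.91, where the p adjusted over 7 relations was 0.0649).

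Same-numbered males of the 2 diets did not deviate together (mean correlation 0.05 over 8 pairs, from -0.18 to 0.28), and the study describes balanced groups. In fits with a replicate block the log2 fold changes stayed -0.24 and 0.08, and the log2 ratio differed by -0.32 (exact sign flips over 256, p = 0.0391). At 9.5 to 415 reads, the depth of oar-miR-107 limits single libraries.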
